A study of Homo sapiens with 6 samples.

Results

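The clade B serpins are a family of protease inhibitors of the cytosol, and 10 of their genes that are known from keratinocytes were followed here in HaCaT cells: *SERPINB1*, *SERPINB2*, *SERPINB3*, *SERPINB4*, *SERPINB5*, *SERPINB6*, *SERPINB7*, *SERPINB8*, *SERPINB9* and *SERPINB13*. They were chosen by symbol, through the Ensembl gene identifiers of the deposited tables and GENCODE release 44, and all 10 were found among 21475 genes. HaCaT cells are human keratinocytes that became immortal spontaneously and do not form tumors. RNA of 3 wild-type (WT) lines and 3 *FGFR2* knockout (KO) lines was enriched for polyA and sequenced, with 1 library per line. The cells were kept in high-glucose DMEM with 10% FBS, with no treatment named in the labels. The KO lines were made with Cas9 and a guide RNA against exon 7 of *FGFR2*, which encodes an FGF receptor of epithelial cells, and both KO and control cells were sorted as single cells and expanded, so each KO library stands for 1 clone. The study's WT lines included the unsorted starting population as well as clones. A figure legend of the study describes the 3 HaCaT lines of its RNA-seq as clonally expanded. The labels themselves do not say which WT lines the 3 WT libraries are. The study also states that clonally expanded HaCaT cells lost the ability to complete terminal differentiation in 3D culture, which limits these lines as a model for inhibitors of the differentiating epidermis.

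A serpin presents an exposed stretch, the reactive centre loop, as bait to a protease. Cleavage of the loop refolds the serpin and locks the protease in an inactive complex, so the sequence of the loop sets which proteases are caught. Clade B members lack a classical secretion signal and act mostly inside cells, where they are thought to protect them from their own or foreign proteases, and in stratified epithelium several of them mark the squamous program. In the human genome their genes lie in a cluster on chromosome 18 and a smaller one on chromosome 6.

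In GRCh38 the 7 members on chromosome 18 spanned 542.8 kb (chr18:63476958-64019779), in the order *SERPINB5*, *SERPINB13*, *SERPINB4*, *SERPINB3*, *SERPINB7*, *SERPINB2* and *SERPINB8*, with *SERPINB3* and *SERPINB4* on the minus strand and the others on the plus strand. The 3 members on chromosome 6, *SERPINB1*, *SERPINB9* and *SERPINB6*, spanned 139.8 kb (chr6:2832332-2972165), all on the minus strand. *SERPINB3* and *SERPINB4*, the squamous cell carcinoma antigens, are near-identical neighbors. Their coding sequences, each 1170 bases long, differed at 56 positions (95.2% identity). The stretch shown is from exon 8 of 8 of the main transcript of each gene (coding bases 950 to 1069, codons 317 to 357). It covers the hinge and a large part of the reactive centre loop, and its differing bases are among those by which reads can tell the copies apart. Capitals mark the 18 bases that differ. *SERPINB3* is shown at chr18:63655761-63655880 and *SERPINB4* at chr18:63637823-63637942, both on the minus strand of GRCh38 and both from GENCODE release 44 transcripts.
SERPINB3: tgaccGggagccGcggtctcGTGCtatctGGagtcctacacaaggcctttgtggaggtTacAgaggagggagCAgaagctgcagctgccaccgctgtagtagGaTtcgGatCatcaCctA
SERPINB4: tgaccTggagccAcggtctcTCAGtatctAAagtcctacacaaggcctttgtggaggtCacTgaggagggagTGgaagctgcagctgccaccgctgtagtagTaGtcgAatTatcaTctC

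The promoters of this pair were still closer to each other. They are shown because WT line 2 and KO line 3 held the lowest levels of both genes, as described further on. Whether the promoters bear on those levels was not tested. The windows reach from 250 bases before to 50 bases after the transcription start (RefSeq, GRCh38.p14), at chr18:63661844-63662143 for *SERPINB3* and chr18:63644207-63644506 for *SERPINB4*, both on the minus strand. Capitals mark the 4 bases of 300 that differed (98.7% identity).
SERPINB3: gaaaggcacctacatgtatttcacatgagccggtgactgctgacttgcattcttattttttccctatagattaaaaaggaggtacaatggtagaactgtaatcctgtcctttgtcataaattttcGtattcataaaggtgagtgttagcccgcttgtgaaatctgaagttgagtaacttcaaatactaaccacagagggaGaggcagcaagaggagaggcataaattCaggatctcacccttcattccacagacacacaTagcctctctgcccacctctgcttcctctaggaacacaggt
SERPINB4: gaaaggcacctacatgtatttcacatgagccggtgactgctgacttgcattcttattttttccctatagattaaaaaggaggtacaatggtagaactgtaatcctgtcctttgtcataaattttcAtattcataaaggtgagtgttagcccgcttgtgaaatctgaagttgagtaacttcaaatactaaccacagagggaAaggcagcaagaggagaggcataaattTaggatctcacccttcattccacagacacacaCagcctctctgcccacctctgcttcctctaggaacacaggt

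A window of this kind, at the start site of the main transcript, was present in RefSeq for all 10 members. AP-1, a dimer of Jun and Fos proteins that acts in many keratinocyte genes, binds a heptamer whose canonical form is TGANTCA with C or G at the central base. TGANTCA with any central base, searched on both strands, lay in the windows of 5 of 10 members, all on chromosome 18. It lay in 7.71% of 35116 promoter windows of RefSeq. The canonical form was the one found in *SERPINB13*, and *SERPINB7* and *SERPINB8* each held it beside a second heptamer with T or A at the central base. *SERPINB2* and *SERPINB5* held only a heptamer with A there, and how many of all windows hold the canonical form was not counted. The matches are shown with 15 bases on either side, on the plus strand of GRCh38.p14, with the heptamer in capitals. The position given is that of the heptamer relative to the start site.
SERPINB5, -146, chr18:63476797-63476833: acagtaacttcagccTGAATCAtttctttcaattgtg
SERPINB13, -87, chr18:63587241-63587277: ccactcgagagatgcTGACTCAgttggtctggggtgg
SERPINB7, -154, chr18:63775249-63775285: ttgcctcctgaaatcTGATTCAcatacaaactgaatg
SERPINB7, -39, chr18:63775364-63775400: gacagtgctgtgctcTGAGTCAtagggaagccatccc
SERPINB2, -102, chr18:63887588-63887624: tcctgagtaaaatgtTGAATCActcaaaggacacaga
SERPINB8, -185, chr18:63969881-63969917: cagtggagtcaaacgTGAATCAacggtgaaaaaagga
SERPINB8, -28, chr18:63970038-63970074: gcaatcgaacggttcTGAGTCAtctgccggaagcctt

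The TATA box TATAAA was found in *SERPINB2*, *SERPINB8*, *SERPINB9* and *SERPINB13* (4 of 10, against 11.5% of all windows). The STAT form TTCNNNGAA lay in *SERPINB1* and *SERPINB8* (2 of 10, against 7.66%). The interferon response form, a pair of TTTC blocks with 2 bases between them (3.57% of all windows), and the ETS form GGAAGT (22.8%) were in none of the 10 windows. The letters were searched on both strands, and none of these matches is evidence of binding.

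The authors deposited the values as FPKM, fragment numbers divided by transcript length and by library depth, so levels can be set side by side between genes. Depth, estimated from the steps between low values, was 67800000 to 88100000 fragments per library. *FGFR2* RNA was at 21.6, 39.7 and 15.02 FPKM in WT lines 1 to 3 and at 3.04, 2.26 and 4.31 FPKM in KO lines 1 to 3, so every KO line lay below every WT line. Its log2 fold change, KO over WT, was -2.73 (SE 0.36), with an adjusted p of 0.261 by limma and an exact permutation p of 0.1, the smallest that 3 against 3 lines allow. All 8 keratinocyte markers were expressed, with a sum of 11268 to 33026 FPKM. The 6 fibroblast markers summed to 6.91 to 33.2 FPKM, highest in WT line 2, where *DCN* reached 15.5 FPKM. *COL1A1* was at 6.82 to 16.7 FPKM over the lines. The summed markers of endothelial cells (5.82 to 27.2 FPKM), leukocytes (5.26 to 22.1 FPKM) and melanocytes (0.708 to 2.44 FPKM) were low beside the keratinocyte sum. Most of the endothelial sum was *VWF*, at 5.66 to 27.1 FPKM and highest in WT line 3. Its KO lines all lay below its WT lines, as for 5.77% of tested genes (log2 fold change -0.83, unadjusted p = 0.0725 by limma). *CDH5* reached 4.92 FPKM in WT line 2, *PTPRC* was at most 0.153 FPKM, and *MLANA* was at 0 in 5 of 6 lines. Of these markers *CD68* passed the unadjusted threshold, at 4.41 to 20.4 FPKM and lower in KO (log2 fold change -0.84, unadjusted p = 0.0483 by limma), but not without WT line 2 (-0.57) or KO line 3 (-0.48). Nor did it pass without WT line 1 (-0.96) or KO line 1 (-0.96), and it passed in 10 of the 18 alternative fits listed with the processing. WT line 2 and KO line 3 stood farthest apart on the first principal component, which held 49.1% of the variance, and fold changes that moved with either are given without it as well.

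Together the 10 serpin genes took 2238 to 3145 FPKM per line, or 0.30% to 0.42% of a library's summed FPKM. *SERPINB5* alone gave 59.0% to 71.1% of that sum, and the 3 genes on chromosome 6 gave 4.28% to 7.05%. By WT mean the order was *SERPINB5*, *SERPINB13*, *SERPINB2*, *SERPINB7*, *SERPINB6*, *SERPINB8*, *SERPINB3*, *SERPINB1*, *SERPINB4* and *SERPINB9*. *SERPINB5* came first, *SERPINB13* came second and *SERPINB9* came last in 6 of 6 lines. Neighbors whose WT ranges overlapped, and whose order was therefore within the spread between lines, were *SERPINB2* and *SERPINB7*, *SERPINB8* and *SERPINB3*, *SERPINB3* and *SERPINB1*, and *SERPINB1* and *SERPINB4*.

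**Figure D1:**
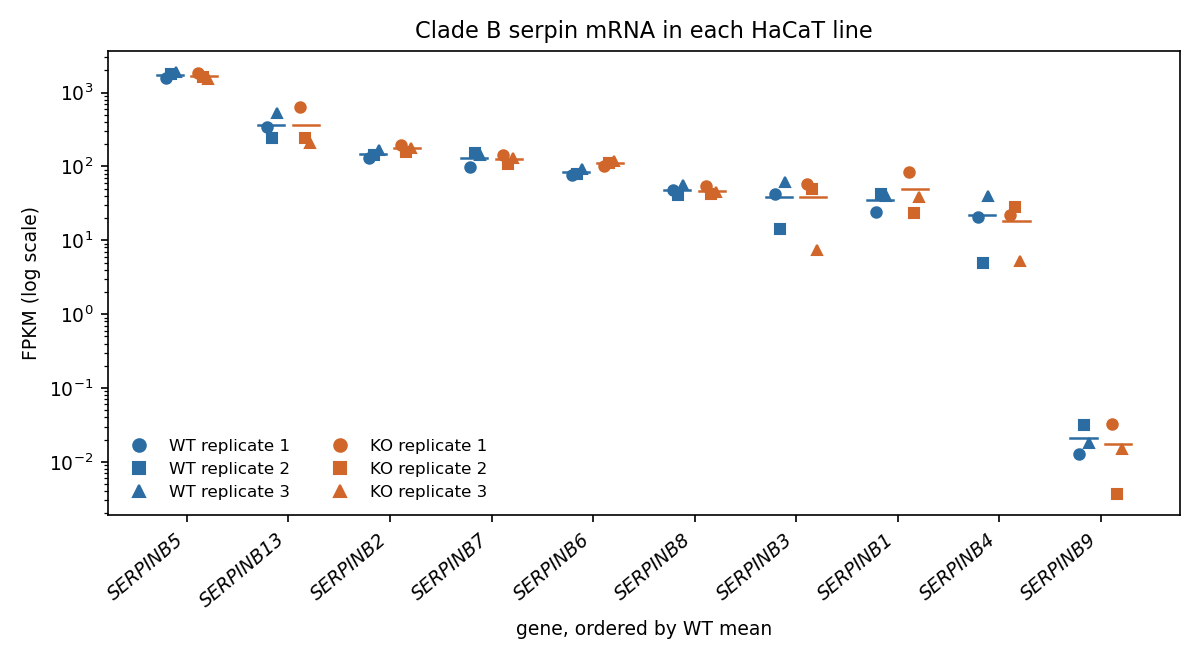
Level of each clade B serpin gene in FPKM on a log scale, with 1 point per cell line (blue WT, orange KO, symbol by replicate number) and a bar at each group mean (n = 3 lines each). *SERPINB5* and *SERPINB13* lie on top in every line, *SERPINB9* lies below 0.04 FPKM, and *SERPINB3* and *SERPINB4* have single low points in WT line 2 and KO line 3.

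*SERPINB5* encodes maspin, a clade B protein of epithelial cells that does not inhibit proteases. It was at 1561, 1775 and 1913 FPKM in the WT lines and at 1857, 1632 and 1511 FPKM in the KO lines, and ranked 33 among all genes by WT mean. The groups overlapped, and the highest line was 1.27-fold the lowest, the narrowest range of the 10 genes. The log2 fold change was -0.07 (SE 0.19), with a 95% interval from -0.51 to 0.37.

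*SERPINB13*, or hurpin, inhibits the lysosomal cysteine proteases cathepsin L and K. Its level was 340.7, 245.2 and 523.9 FPKM in the WT lines and 629.5, 243.7 and 205.9 FPKM in the KO lines. Both the highest and the lowest line were KO lines, so the groups overlapped throughout, and the log2 fold change was -0.16 (SE 0.45). *SERPINB2*, the plasminogen activator inhibitor type of the family and an inhibitor of urokinase, was at 130.3, 141.8 and 165.2 FPKM in the WT lines and at 195.4, 157.6 and 175.4 FPKM in the KO lines. Of the KO lines, 2 lay above all WT lines, and the log2 fold change was 0.27 (SE 0.15, exact permutation p = 0.2). *SERPINB7*, or megsin, is an inhibitor of the upper epidermis whose loss causes a palmoplantar keratosis. It was at 98.1, 153.3 and 143.6 FPKM in the WT lines and at 144.2, 108.8 and 131.5 FPKM in the KO lines, with a log2 fold change of -0.02 (SE 0.21), which was 0.02 after scaling to TPM.

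*SERPINB8* inhibits furin, a protease of the secretory pathway. It was at 48.6, 40.8 and 56.2 FPKM in the WT lines and at 54.0, 42.6 and 44.7 FPKM in the KO lines, where the KO range lay within the WT range. Its log2 fold change was -0.04 (SE 0.17), with an interval from -0.43 to 0.35. *SERPINB1* inhibits neutrophil elastase, cathepsin G and proteinase 3. It was at 24.0, 42.7 and 39.2 FPKM in the WT lines and at 84.1, 23.6 and 39.2 FPKM in the KO lines, and its KO mean of 49.0 ± 31.4 FPKM (SD, n = 3) rested on KO line 1. The log2 fold change of *SERPINB1* was 0.31 (SE 0.44), and -0.17 without KO line 1.

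*SERPINB6* inhibits trypsin-like proteases, cathepsin G and the skin kallikrein KLK8, and it was the only member whose groups did not overlap. It was at 76.1, 79.2 and 93.7 FPKM in the WT lines and at 100.9, 110.2 and 118.6 FPKM in the KO lines. The means were 83.0 ± 9.39 and 110 ± 8.85 FPKM (SD, n = 3 lines each), a ratio of 1.32. Groups that did not overlap, with KO higher, were found for 18.3% of the 12241 tested genes, and with KO lower for 5.77%, or 24.1% in either direction. The log2 fold change of 0.41 (SE 0.14, 95% interval 0.08 to 0.73) had an unadjusted p of 0.0213 and an adjusted p of 0.261 by limma, and the exact permutation p was 0.1. An unadjusted p at least this small, whatever the fold, was found for 8.12% of tested genes (994 genes), and one of at most 0.05 for 16.9%. *SERPINB6* therefore did not pass the test, and its fold change also stayed under the 0.5 that was required.

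*SERPINB9* inhibits granzyme B and shields lymphocytes and other cells from it. It was at 0.0129, 0.0316 and 0.0180 FPKM in the WT lines and at 0.0328, 0.00365 and 0.0151 FPKM in the KO lines. With a transcript of 4143 bases these values stand for about 4.34, 8.89 and 5.34 fragments in the WT lines and 12, 1.08 and 5.43 fragments in the KO lines, so no difference between groups was detectable at this depth. It was the member that missed the minimum mean of 0.5 FPKM, and 9 of 10 were tested. *GZMB*, its target, was at most 0.308 FPKM (chosen after its values were seen).

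A gene was called where its adjusted p from limma did not exceed 0.05 and its log2 fold change reached 0.5 in either direction. By this rule 0 of 9 tested clade B serpins were called, as were 0 of 12241 genes (0%). The smallest adjusted p of the fit was 0.261, so the rule missed even the targeted gene *FGFR2* (log2 fold change -2.73). The study, with DESeq2, reported differentially expressed genes between KO and WT, with *FGFR2* among those lower in KO. The lack of a call here is therefore not evidence that a serpin was unchanged. With the unadjusted p and the same fold change, 0 of 9 passed, against 12.5% of all tested genes, of which 1251 were higher (10.2% of those tested) and 285 lower in KO (2.33%), or 785 and 521 after median-of-ratios scaling. The fold changes of the 9 members were above 0 for 3 genes (*SERPINB1*, *SERPINB2* and *SERPINB6*) and below 0 for 6, *SERPINB7* turning positive with TPM scaling. Their median was -0.04, beside 0.09 over all tested genes, of which 7420 of 12241 were above 0. By position, 1 of 7 members on chromosome 18 was above 0 (median -0.07), as were both tested members on chromosome 6 (median 0.36). The intervals bound what could be missed. For *SERPINB5*, *SERPINB7* and *SERPINB8* they ended within about 0.5 on either side, while for *SERPINB3* the interval ran from -2.17 to 1.65 and for *SERPINB4* from -2.04 to 1.81. In bulk RNA, fewer cells that express a gene and less RNA per cell cannot be told apart, and with 1 library per line the p-values measure the spread between these lines only.

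**Figure D2:**
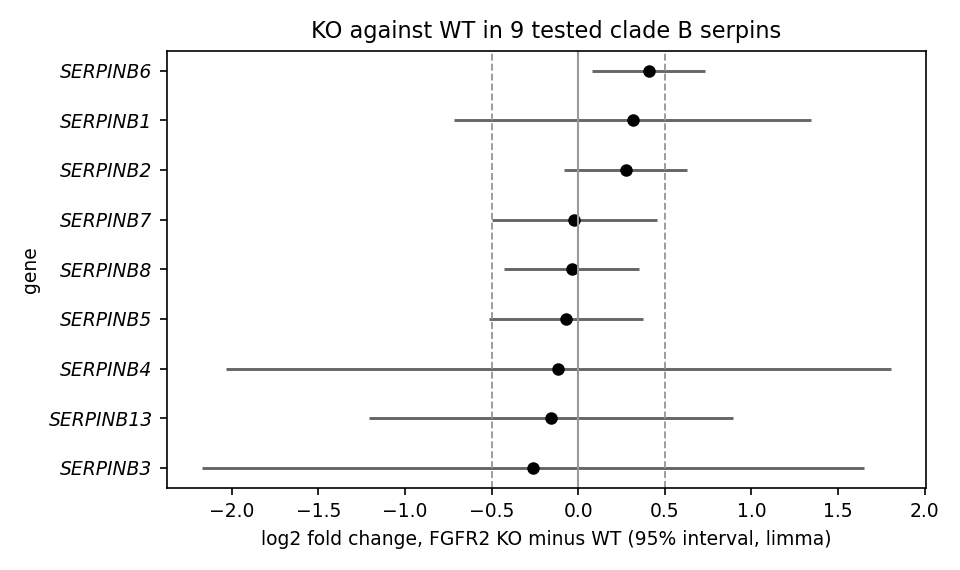
Log2 fold change, KO minus WT, of the 9 tested clade B serpins with the 95% interval from limma (3 lines per group), with dashed lines at -0.5 and 0.5. The interval of *SERPINB6* (0.08 to 0.73) is the only one clear of 0, and those of *SERPINB3* and *SERPINB4* are the widest.

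The larger differences among these genes lay between lines of the same genotype. The highest line was at least 2-fold the lowest for 4 of the 9 tested members, *SERPINB1*, *SERPINB3*, *SERPINB4* and *SERPINB13*, against 34.7% of all tested genes. *SERPINB3* was at 41.8, 14.4 and 60.9 FPKM in the WT lines and at 57.7, 49.1 and 7.28 FPKM in the KO lines, an 8.37-fold range. *SERPINB4* was at 20.6, 5.01 and 39.96 FPKM in the WT lines and at 22.2, 28.2 and 5.18 FPKM in the KO lines, a 7.98-fold range. For both genes WT line 2 and KO line 3 were the low lines, 1 in each group, and the other 4 lines were higher in each gene. Ranked by the spread within groups on the log2 scale, the pair stood at 97 (*SERPINB3*) and 95 (*SERPINB4*) of 12241 genes, while *SERPINB5* stood at 9792 and *SERPINB6* at 10214. The log2 fold changes, KO over WT, of -0.26 (SE 0.82) for *SERPINB3* and -0.11 (SE 0.82) for *SERPINB4* followed these lines. Without KO line 3 they were 0.67 and 0.61, and without WT line 2 they were -0.85 and -0.92.

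Over the 6 lines the log2 levels of *SERPINB3* and *SERPINB4* correlated with r = 0.95 and rho = 0.89 (exact permutation p = 0.0139 and 0.0333, adjusted p of r = 0.35 over 36 pairs of members). Without WT line 2 and KO line 3 the r was 0.65, so the relation rested largely on those lines, and 30 of 12240 other genes had a higher r with *SERPINB3*. The closest other pair was *SERPINB8* and *SERPINB13* (r = 0.91, rho = 0.71, exact permutation p = 0.0194 and 0.136, adjusted p of r = 0.35), with r = 0.63 without WT line 3 and KO line 1. Groups of 3 lines are too few for the correlation within WT or within KO.

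The ratio of *SERPINB3* to *SERPINB4* was 2.03, 2.88 and 1.53 in the WT lines and 2.60, 1.74 and 1.41 in the KO lines, so *SERPINB3* was the higher copy in every line. On the log2 scale the ratio was 1.01 ± 0.42 in WT and 0.87 ± 0.46 in KO (SD, n = 3 lines each), a difference of -0.15 with an exact permutation p of 0.7. Both values are uncertain, since short reads of near-identical genes are shared out by estimation. Of the stretches of 31 bases in the *SERPINB3* transcripts, 66.1% also occurred in another gene, 40.5% in *SERPINB4* and 34.7% in *SERPINB11*. Of those of *SERPINB4*, 34.6% occurred in *SERPINB3*. *SERPINB7* and *SERPINB13* shared none, *SERPINB2* shared 19.0% with an unnamed gene model, and the other 5 members shared 1.55% to 7.999%. *SERPINB11* was at most 0.0358 FPKM in any line.

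**Figure D3:**
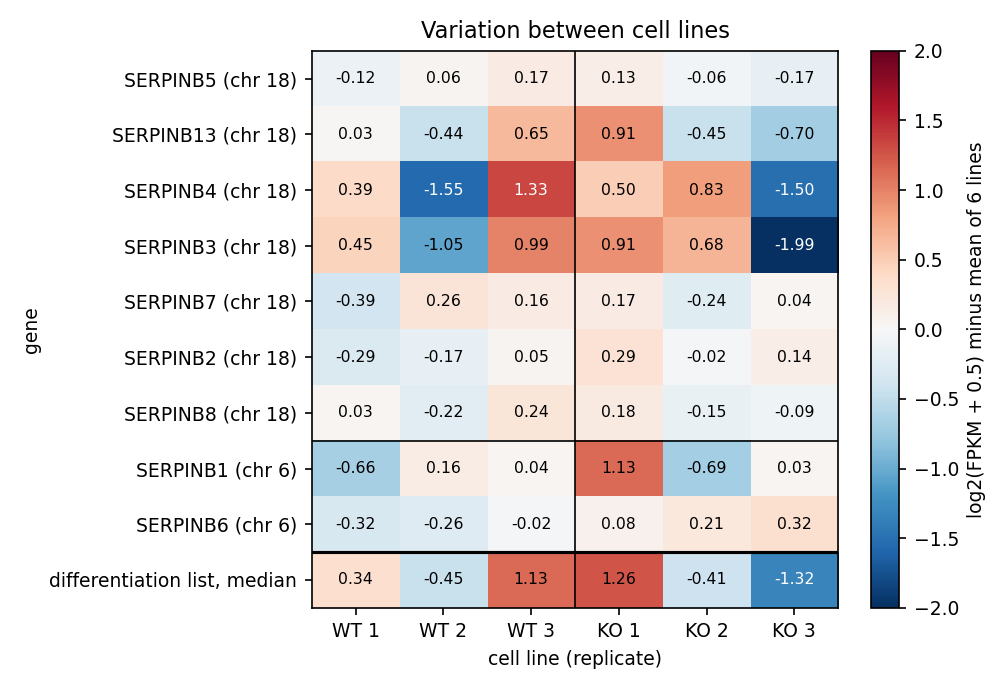
Difference of each tested member from its mean over the 6 lines on the log2(FPKM + 0.5) scale, with genes in chromosomal order and the median of the differentiation list as the last row. WT line 2 and KO line 3 are low in *SERPINB3* and *SERPINB4* (-1.05 to -1.99), WT line 3 and KO line 1 are high in *SERPINB13*, and *SERPINB5* stays within 0.17 of its mean.

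A list of 15 keratinocyte differentiation genes was summarized in each line by the median of its tested genes. Whether this median tracks progress along that program was not tested. Of its 14 tested genes, 0 were called and 2 passed the unadjusted threshold, against 12.5% of all tested genes. These were *CNFN* (-0.92, unadjusted p = 0.01 by limma), a cornified envelope protein, and *IVL* (-1.17, unadjusted p = 0.0432 by limma), the envelope scaffold involucrin. *CNFN* also passed without WT line 2 (-0.96) and without KO line 3 (-0.69), and *IVL* did not (-1.04 and -0.89). *IVL* did not pass without WT line 1 (-1.01) or KO line 1 (-0.87) either. Of the 18 alternative fits, *CNFN* passed in 18 and *IVL* in 12. In all, 13 of 14 were below 0 (median -0.64), against 4821 of 12241 tested genes. All 14 had at least a 2-fold range over the lines, against 34.7% of tested genes. The median difference of the list from its mean was 0.34, -0.45 and 1.13 in the WT lines and 1.26, -0.41 and -1.32 in the KO lines, so that WT line 3 and KO line 1 were high and KO line 3 was low. The genes did not all share this order, and *IVL* was highest in WT line 1 (338 FPKM) and lowest in KO line 1 (79.7 FPKM).

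Among the 9 tested members, *SERPINB13* followed this median most closely. Its r with the list median was 0.97 and its rho 0.94 over the 6 lines (exact permutation p = 0.00278 and 0.0167, adjusted p of r = 0.025 over 9 members), and r was 0.998 without KO lines 1 and 3. Of the 14 genes of the list, 7 had an r over 0.8 with *SERPINB13* and 1 was negative. How many of all tested genes follow the list median as closely was not counted, so the relation is not shown to be particular to *SERPINB13*. *SERPINB3* (r = 0.85, rho = 0.89, exact permutation p = 0.0292 and 0.0333, adjusted p of r = 0.125) and *SERPINB8* (r = 0.85, rho = 0.77, exact permutation p = 0.0417 and 0.103, adjusted p of r = 0.125) did not pass the adjustment. Without KO lines 1 and 3 their r was 0.64 and 0.99. The r of *SERPINB5* was 0.76 and that of *SERPINB4* 0.75 (both adjusted exact permutation p = 0.205), and the remaining 4 members lay between -0.32 for *SERPINB6* and 0.42 for *SERPINB1*. The lines descend from a single parental line, and the correlations cross WT and KO because neither group alone is large enough.

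Other clade B genes lay below every tested member and, apart from *SERPINB11*, above *SERPINB9* in WT mean. *SERPINB12* was at 0.449, 0.168 and 1.44 FPKM in the WT lines and 3.36, 0.210 and 0.106 FPKM in the KO lines, and *SERPINB10* was at 1.26, 1.58 and 3.38 FPKM and at 3.39, 2.21 and 0.940 FPKM. Neither passed the unadjusted threshold. Both *SERPINB12* and *SERPINB10* were highest in KO line 1 and WT line 3, as *SERPINB13* was. Of 6 tested serpins of other clades (15 in the list), 0 were called and 0 passed the unadjusted threshold.

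Proteases that clade B serpins can inhibit were taken from a list as well. Of 12 serine proteases 4 were tested and 0 were called. The unadjusted threshold was passed by 1 of the 4, against 12.5% of all tested genes. This was *PLAU*, the urokinase that *SERPINB2* inhibits. It was at 49.7, 98.8 and 35.2 FPKM in the WT lines and 34.6, 27.8 and 16.7 FPKM in the KO lines (log2 fold change -1.13, unadjusted p = 0.0248, adjusted p = 0.261 by limma). *PLAU* no longer passed the unadjusted threshold without WT line 2, its highest line (-0.72), or without KO line 3, its lowest (-0.84). *CTSG*, *ELANE* and *CMA1*, leukocyte proteases caught by *SERPINB1* or *SERPINB4*, were listed at 0 in all 6 lines (named after their values were seen). *FURIN* and *KLK8*, also named after their values were seen, were at 38.5 to 79.9 and 45.4 to 104 FPKM, on the same scale as the levels of *SERPINB8* and *SERPINB6*.

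All 10 cysteine proteases of the list were tested and 0 were called. Of the 10, 2 passed the unadjusted threshold, against 12.5% of all tested genes. *CTSL*, the cathepsin that *SERPINB3* and *SERPINB13* inhibit, was at 18.01, 11.3 and 23.7 FPKM in the WT lines and 24.3, 27.2 and 26.8 FPKM in the KO lines (log2 fold change 0.61, unadjusted p = 0.0449 by limma). *CASP4*, an inflammatory caspase, had a log2 fold change of -0.52 (unadjusted p = 0.0172 by limma). Neither passed the unadjusted threshold without WT line 2 (*CTSL* 0.33, *CASP4* -0.40) or without KO line 3 (0.59 and -0.40). *CTSL* did not pass without WT line 1 (0.65), KO line 1 (0.66) or KO line 2 (0.58) either. Of the fits that left out a line, it passed only without WT line 3 (0.85). Its fold change fell most without WT line 2, its lowest line. Of the 18 alternative fits, *CTSL* passed in 7 and *CASP4* in 14. Scaling also decided them, since *CTSL* did not pass with median-of-ratios or quantile scaling (0.50 and 0.51) nor *CASP4* with TPM (-0.49). Of 13 tested inhibitors that are no serpins, 0 were called and 1 passed the unadjusted threshold, against 12.5% of all tested genes. This was the metalloprotease inhibitor *TIMP1* (log2 fold change 0.59, unadjusted p = 0.0165 by limma). *TIMP1* did not pass without KO line 3 (0.50), KO line 1 (0.55) or WT line 1 (0.43), or with median-of-ratios or quantile scaling (0.48 and 0.47). It passed in 13 of the 18 alternative fits.

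The surroundings of both clusters were read in the same fit. Over all tested genes, 7420 of 12241 were above 0 and 12.5% passed the unadjusted threshold. Of 7 tested genes within 500 kb of the serpin genes on chromosome 6, 6 were above 0, with a median log2 fold change of 0.39. The unadjusted threshold was passed by 2 of the 7 (*PSMG4* 0.59 and *NQO2* 0.56). Neither passed without KO line 3 (0.39 and 0.48) or with median-of-ratios scaling (0.48 and 0.45), and *NQO2* did not without WT line 2 (0.36). Without KO line 1 (0.56 and 0.57) or WT line 1 (0.51 and 0.58) neither passed, and *PSMG4* did not without WT line 3 (0.60). Of the 18 alternative fits, *PSMG4* passed in 11 and *NQO2* in 10. All tested genes of chromosome 6 had a median of 0.07. By line, the median of these neighbors, as a log2 difference, was -0.06, -0.04 and 0.08 in the WT lines and 0.55, 0.14 and 0.37 in the KO lines. The 4 tested neighbors of the cluster on chromosome 18 had a median of 0.10, beside 0.07 for the chromosome, and 0 passed the unadjusted threshold. Whether *SERPINB6* moved with its neighborhood was not tested. The genes most like *SERPINB6* over the 6 lines were *ASMTL* (r = 0.998), *WDR53* (r = 0.997) and *KIF7* (r = 0.995), and 656 genes had an r over 0.9 with it.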

How the data were processed

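The authors trimmed the reads of the stranded mRNA libraries with fastp 0.20.0 and quantified them with Kallisto 0.46.1 on GRCh38, per the labels, and deposited FPKM per gene for each library. How the FPKM were calculated is not given in the sources used here. Of 21493 rows, 18 repeated copies of pseudoautosomal genes were dropped, and 21400 of 21475 genes had a symbol in GENCODE release 44. Among genes with 1 annotated transcript, 66.1% of 4593 low values came out as whole fragments within 0.02 (4% by chance), so count models were not run.

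The 12241 genes whose mean reached 0.5 FPKM were tested for KO against WT on log2(FPKM + 0.5) by limma 3.58.1 (R 4.3.3), with a mean-variance trend and Benjamini-Hochberg adjustment, and log2 fold changes are on that scale. Single values were compared with exact two-sided permutation tests over the lines (numpy 2.4.6, with ranks from scipy 1.17.1). The members and lists were chosen with earlier results of these data known. Named by rule were the members, *FGFR2*, up to 4 genes per list past the threshold, markers of other cell types and the 3 genes most like the member with the largest fold change. Alternatives were pseudocounts of 0.1 and 1, no filter or 2 FPKM, TPM, median-of-ratios and quantile scaling, other empirical Bayes steps, library weights, a replicate block, removal of chromosome medians and leaving out each line.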

Additional observations from a re-analysis of the deposited data

How the results depend on the processing

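Calls depended on library weights (limma's arrayWeights), under which 1396 genes passed, 1160 of them higher in KO, with 89.7% of the WT weight on WT replicate 1. Under the other 17 alternatives 0 genes were called. No clade B serpin was called under any of the 18. With weights *SERPINB1* passed the unadjusted threshold (1 member, log2 fold change 1.11, adjusted p = 0.0788 by limma), *SERPINB6* had an adjusted p of 0.0402 and *SERPINB2* of 0.0491 at fold changes under the threshold, the median of the members was 0.28, and the fold changes of *SERPINB13* (0.28), *SERPINB5* (0.13), *SERPINB7* (0.38) and *SERPINB8* (0.022) turned positive. That of *SERPINB7* was 0.016 with TPM scaling. Leaving out single lines gave -0.17 to 0.74 for *SERPINB1*, -0.65 to 0.15 for *SERPINB13*, -0.85 to 0.67 for *SERPINB3*, -0.92 to 0.61 for *SERPINB4*, -0.22 to 0.10 for *SERPINB7*, -0.16 to 0.073 for *SERPINB8*, -0.15 to 0.27 for the members' median (0.27 without KO replicate 3 and 0.17 without WT replicate 3) and -0.39 to 0.064 for the log2 ratio of *SERPINB3* to *SERPINB4* (0.058 without KO replicate 3 and 0.064 without WT replicate 2). The causes were not tested. *SERPINB6* was between 0.29 and 0.50 under all 18 alternatives (adjusted p 0.0402 to 0.634 by limma), and *SERPINB2* kept its direction too. The median over all genes, 0.09 as reported, became -0.02 with median-of-ratios scaling, that of the members -0.15, and the unadjusted split went from 1251 higher and 285 lower to 785 and 521 (803 and 502 with quantile normalization). Of 108 counts of list genes under alternatives, 70 were within 1.5 times the reported count, 16 were above and 22 below. Same-numbered WT and KO lines deviated together with r of -0.21, 0.23 and 0.05. With 3 lines a group these values cannot decide whether the numbers pair the lines. With the replicate block 0 genes and 0 members were called and 1762 genes passed the unadjusted threshold, beside 1536 without it. The smallest adjusted p by limma was 0.0972 with the block and 0.261 without it. With 3 lines a group, the intervals of *SERPINB3* and *SERPINB4* reached about 2 on the log2 scale to either side, and the level of *SERPINB9* rested on at most 12 fragments.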
